A study of Mus musculus with 4 samples.

Results

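Chemokines made by antigen-presenting cells of the mouse mammary gland were followed across cell types and reproductive stages. The 8 genes are Cxcl9, Cxcl10, Cxcl16, Ccl22, Ccl17, Cxcl2, Ccl2 and Ccl7. They were taken by name from the 55253 genes that both gene matrices hold. Their unique molecular identifiers (UMIs, counts of captured mRNA molecules) were summed over cells gated by counts of other genes. Macrophages had at least 2 UMIs of C1qa, monocytes at least 1 of Csf1r, and Retnla-positive cells at least 2 of Retnla. Type 1 conventional dendritic cells (cDC1) had at least 1 UMI of Xcr1, type 2 conventional dendritic cells (cDC2) at least 1 of Cd209a, and migratory dendritic cells at least 2 of Fscn1. No chemokine was used in gating.

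Cells bearing CD45, the surface protein of blood-derived cells, were profiled in 2 pooled single-cell libraries, an earlier and a later one, in which hash tags (barcoded antibodies) mark the source of each cell. The earlier library held Nulliparous, Gestation and Lactation tags, and the later library Gestation, Lactation, Involution (when the gland shrinks after weaning), Regression, Balb/c and GF. A tag called HT2 is in both; the deposited tag table names it germ-free, while the titles list no germ-free mice for the earlier library, so HT2 entered comparisons of cell types but not of stages. The labels used here give no age, no strain beyond Balb/c, no stage for the Balb/c and GF tags, and no number of mice behind a tag. Each of the 11 combinations of library and tag was therefore treated as 1 sample. P-values measure the spread between these samples, with each gene's spread moderated by that of other genes. Gestation and Lactation were the 2 stages present in both libraries.

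Chemokines are small secreted proteins that draw cells bearing the matching receptor. Cxcl9 and Cxcl10 act on Cxcr3 of activated T cells and natural killer cells and are classic targets of interferon-gamma. Cxcl16 is made as a membrane protein and binds Cxcr6. Ccl17 and Ccl22 bind Ccr4, Cxcl2 draws neutrophils through Cxcr2, and Ccl2 and Ccl7 draw monocytes through Ccr2. In the mammary gland, macrophages and dendritic cells lie along the ducts and alveoli, and macrophage numbers change as the tissue grows for milk production and shrinks after weaning.

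RefSeq gives 3 neighbouring pairs in the mouse genome (build GRCm38.p6, the files' build being named mm10). Cxcl9 lies at chr5:92321331-92328079 and Cxcl10 at chr5:92346638-92348889, 18.6 kb apart. Ccl22, chr8:94745684-94751388, and Ccl17, chr8:94809380-94812038, are 58.0 kb apart. Ccl2, chr11:82035577-82037452, and Ccl7, chr11:82045712-82047525, are 8.26 kb apart. Cxcl2 is at chr5:90903899-90905938 and Cxcl16 at chr11:70454389-70459984. Promoter sequence was at hand for 5 of the 8 genes. Of these, 3 are printed, because Cxcl9 and Cxcl10 share a receptor and a chromosome segment but not the letters searched, and Cxcl2 shares one set of letters with Cxcl10. Each run is the 250 bases before the transcription start, 5′ to 3′ on the gene's strand (Cxcl9 chr5:92328080-92328329, minus; Cxcl10 chr5:92348890-92349139, minus; Cxcl2 chr5:90903649-90903898, plus). Capitals mark matches to the letters of an NF-kB site (GGGA, any 2 bases, TTCC) and of an interferon-stimulated response element (GAAA, any 2 bases, GAAA).
Cxcl9: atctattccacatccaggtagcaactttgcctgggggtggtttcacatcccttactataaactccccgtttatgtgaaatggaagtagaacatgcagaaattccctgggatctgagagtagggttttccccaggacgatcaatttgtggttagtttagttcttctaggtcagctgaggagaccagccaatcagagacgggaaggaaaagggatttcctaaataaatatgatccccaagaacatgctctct
Cxcl10: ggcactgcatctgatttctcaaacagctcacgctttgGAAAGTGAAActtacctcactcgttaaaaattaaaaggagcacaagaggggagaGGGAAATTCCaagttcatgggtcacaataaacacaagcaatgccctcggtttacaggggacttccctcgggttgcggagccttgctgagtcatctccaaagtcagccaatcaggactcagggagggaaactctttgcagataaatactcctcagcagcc
Cxcl2: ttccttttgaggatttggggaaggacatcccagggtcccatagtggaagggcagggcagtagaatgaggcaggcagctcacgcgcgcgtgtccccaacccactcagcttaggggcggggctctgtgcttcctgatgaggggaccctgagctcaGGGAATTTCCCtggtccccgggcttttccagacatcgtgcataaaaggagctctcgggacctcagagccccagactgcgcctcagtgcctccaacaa
The NF-kB letters stood 159 to 150 bases before the Cxcl10 start. In Cxcl2 they stood at 97 to 88 bases, with an overlapping match on the other strand at 96 to 87. The interferon letters stood 213 to 204 bases before the Cxcl10 start. Among 32851 mouse promoters of the same length, 1.21% held the NF-kB letters on either strand and 2.98% the interferon letters. The letters TGANTCA (AP-1) were found at 74 to 68 bases in Cxcl10 and in 6.75% of promoters. The letters TTCNNNGAA (a STAT site, GAS) were found in Ccl17 at 99 to 91 bases and in 7.02% of promoters. The Ccl17 window, chr8:94810203-94810452, lies inside the gene span given above, so bases were counted there from a start within that span. None of these letters was found in the windows of Cxcl9 and Ccl22. A match describes letters only.

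After filtering, 29900 cells were analysed and 5061 fell in a gate, of which 1729 were macrophages, 1156 Retnla-positive cells, 1108 monocytes, 494 cDC2, 399 cDC1 and 175 migratory dendritic cells. Cells had a median of 1599 UMIs in the earlier and 3049 in the later library, and 139 cell barcodes occurred in both. Sums of at least 10 cells were kept, which left 11 samples per gate, except 10 for cDC2 and 6 for migratory dendritic cells. Markers not used in gating were called higher in their own gate for 6 of 6 cDC1, 5 of 5 cDC2, 5 of 5 migratory, 6 of 6 macrophage, 6 of 6 monocyte and 5 of 6 Retnla-positive markers tested. The gates also shared markers. Retnla-positive cells had 6 of 6 macrophage and 4 of 5 cDC2 markers called higher. Monocytes had 5 of 6 Retnla-positive and 5 of 5 neutrophil markers higher. In cDC2, 4 of 4 plasmacytoid dendritic cell and 4 of 6 monocyte markers were higher. The migratory gate of later HT2 stood apart: its migratory marker list summed to 10.96 UMIs per 10000 against 36.3 to 48.8 in the other samples, and its stromal list to 37.3 against 0.00 to 4.34. The neutrophil list summed to 2.95 to 224 UMIs per 10000 in the monocyte gate, highest in Balb/c. Of gated cells, 40.7% in the earlier and 55.0% in the later library met more than 1 gate and were placed in the first met. In pooled sums, fewer positive cells and less RNA per cell cannot be told apart, so the share of cells with a UMI is given beside the level.

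**Figure D1:**
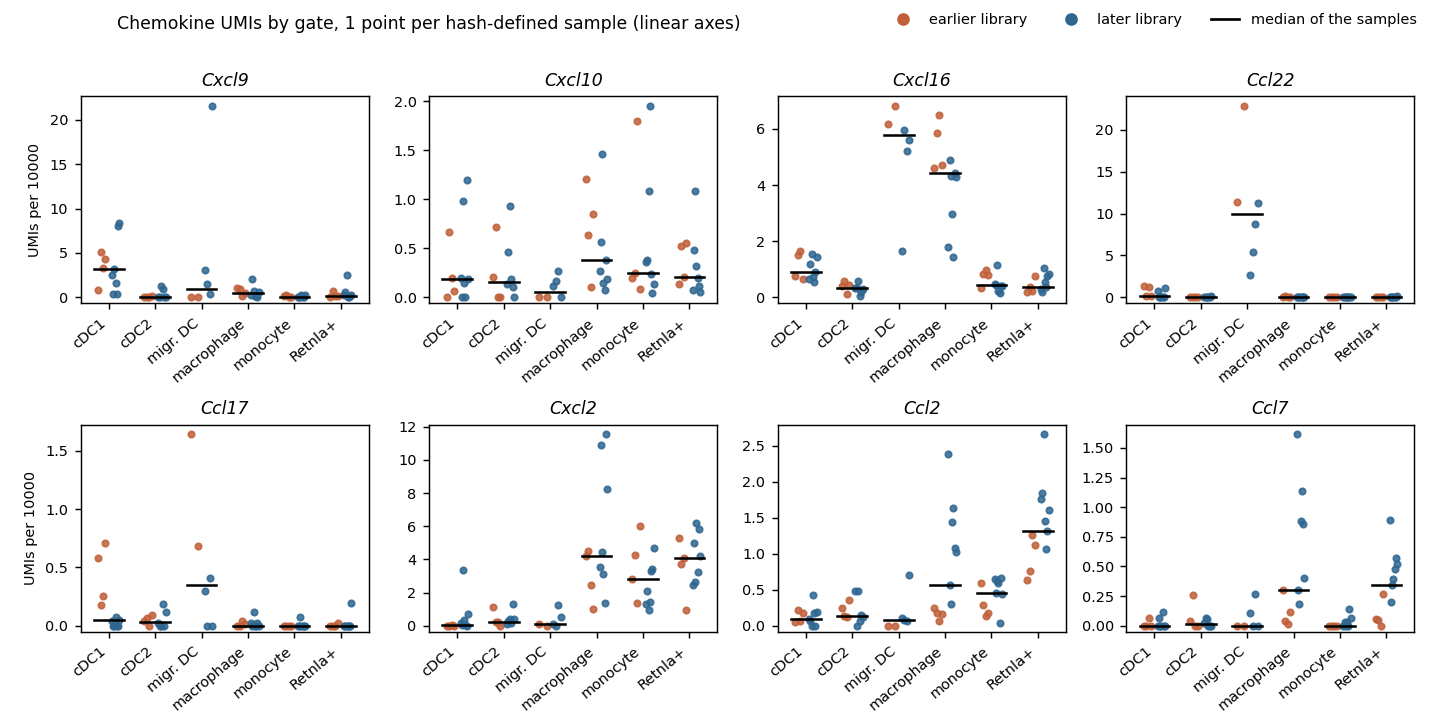
Level of each chemokine (UMIs per 10000, linear axes that differ between panels) in every hash-defined sample with at least 10 cells, by gate, with the median as a bar. Cxcl16 is high in macrophages and migratory dendritic cells, Ccl22 in migratory dendritic cells, and Cxcl2, Ccl2 and Ccl7 in macrophages and Retnla-positive cells.

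Each gate was compared with the mean of the other 5 within samples by edgeR's quasi-likelihood test with Benjamini-Hochberg adjustment, and a gene was called at an adjusted p under 0.05. All 8 chemokines were counted, and 7 passed the filter on low counts; Ccl17, with 99 UMIs in the sums, did not. Calls were common over all 5598 genes tested, so the counts are set beside the background. Macrophages had 4 chemokines called higher, against 24.3% of all genes, and 1 lower, against 17.6%. Migratory dendritic cells had 3 higher (17.5% of all genes) and 1 lower (19.5%). Retnla-positive cells had 3 higher (21.5%) and 3 lower (18.1%), cDC1 had 2 higher (23.8%) and 3 lower (23.0%), and monocytes had 1 higher (20.2%) and 4 lower (16.8%). In cDC2, 2 were called lower (9.72% of all genes) and 0 higher (15.6%), and 0 were higher by DESeq2 or at an unadjusted p under 0.05. Shares near the background say nothing about these genes in particular, and the values below carry the description.

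**Figure D2:**
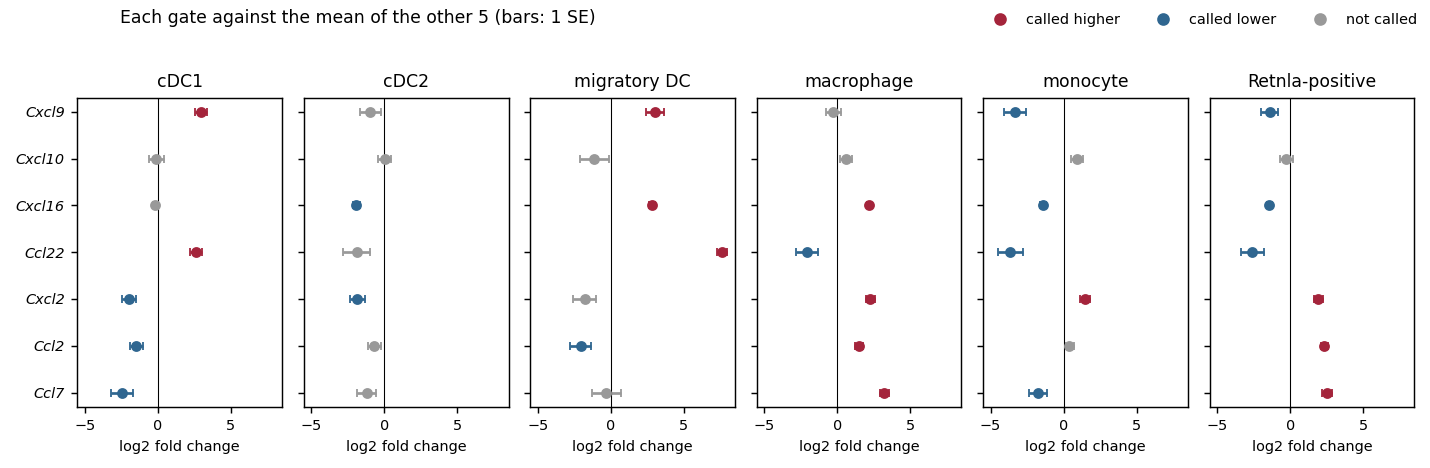
Log2 fold change of each tested chemokine in a gate against the mean of the other 5, with standard error bars; red points were called higher, blue points lower and grey points not called. Ccl22 in migratory dendritic cells has the highest value of the 42, 7.62.

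Cxcl9, a Cxcr3 ligand, was highest in cDC1, the dendritic cells that take up dead cells and present their antigens to CD8 T cells. Its cDC1 level ran from 0.33 UMIs per 10000 (later Gestation) through a median of 3.21 to 8.41 (GF), with Balb/c at 8.05. In macrophages it ran from 0.02 to 2.10 with a median of 0.52, so the ranges overlapped. In migratory dendritic cells it was 0 in earlier Nulliparous and Lactation, 0.41 in Regression, 1.45 in Involution, 3.05 in later HT2 and 21.6 in GF. The GF value rested on 1 cell, which held 98.4% of the 123 UMIs. Against the mean of the other gates, Cxcl9 was higher in cDC1 by 2.96 on the log2 scale (SE 0.41, edgeR adjusted p = 2.17e-08) and in migratory dendritic cells by 3.01 (SE 0.60, adjusted p = 4.38e-05). It was lower in monocytes by −3.34 and in Retnla-positive cells by −1.40, both called. The cDC1 and migratory gates did not differ by the test (−0.04, adjusted p = 0.973), where 20.9% of genes were called higher in cDC1. A UMI was seen in 22 of 132 migratory cells, most of them in later HT2, where the share was 42.4%. That is the sample whose migratory gate had few migratory and many stromal marker UMIs. The migratory call held in the later library alone (3.58) and with each sample's top cell left out (3.02). It also held with HT2 left out, but no setting left out both HT2 and the top cells. The earlier library alone gave −6.50 (adjusted p = 0.207), a fitted value that is no bound because both migratory sums were at 0. With cells of more than 1 gate left out, cDC1 exceeded migratory dendritic cells by 1.78 (adjusted p = 0.0202).

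Few cDC1 carried Cxcl9 and those that did carried much of it. A UMI was seen in 52 of 399 cDC1, between 3.23% and 26.7% of cells in a sample with a median of 11.6%. Positive cells held 15.1 UMIs each on average. The highest share, 4 of 15 cells, was in later Gestation, the sample with the lowest level. The cell with the most UMIs held a median of 78.9% of its sample's Cxcl9. T cells, which are not known as a main source, had a UMI in 0.110% to 1.29% of cells at median depths of 1296 to 3322 UMIs, against 3283 to 9371 in cDC1. Thinned to 1000 UMIs per cell, the median shares were 6.67% in cDC1 and 0.175% in T cells. The cDC1 call held with each sample's top cell left out.

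Cxcl10, the other Cxcr3 ligand, was not called higher in any gate in the reported fit. With no filter on low counts it was called higher in macrophages and monocytes, and with 2 UMIs for every gate gene in monocytes. Macrophages had a median of 0.38 UMIs per 10000, from 0.07 in Regression to 1.46 in later Lactation. Monocytes had a median of 0.25, from 0.05 in Balb/c to 1.95 in Involution, and these ranges overlapped. A UMI was seen in 1.48% to 13.8% of macrophages and in 0.540% to 3.06% of T cells, so the lowest macrophage samples were at the T cell share. The monocyte difference was 0.92 (adjusted p = 0.0711) and the macrophage difference 0.59 (adjusted p = 0.239), and macrophages against monocytes gave −0.27 (adjusted p = 0.668, with 21.3% of genes called higher in macrophages). The 6 gates held only 42.2% (earlier library) and 39.9% (later library) of all Cxcl10 UMIs, with 24.0% and 24.7% in T cells. For Cxcl9 the gates held 76.0% and 64.2%. Within cDC1, Cxcl9 was also seen in 4 of 4 Cxcl10-positive cells of the earlier and 7 of 13 of the later library, against 12.9% and 13.2% of all cDC1. Within macrophages it was seen in 5 of 42 and 3 of 35 Cxcl10-positive cells, against 3.56% and 3.49% of all macrophages. Read the other way, Cxcl10 was seen in 4 of 27 and 7 of 25 Cxcl9-positive cDC1 and in 5 of 33 and 3 of 28 Cxcl9-positive macrophages.

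Cxcl16, the ligand of Cxcr6 and a scavenger receptor, was spread over many cells of 2 gates. In macrophages it ran from 1.45 UMIs per 10000 (Regression) through 4.43 (median) to 6.49 (earlier Gestation), in 37.3% to 69.8% of cells. In migratory dendritic cells it was 6.19 in earlier Nulliparous, 6.82 in earlier Lactation, 5.95 in Involution, 5.22 in Regression, 5.61 in GF and 1.66 in later HT2. In cDC1 it ran from 0.53 to 1.67 with a median of 0.89. All 5 migratory samples other than HT2 lay above every cDC1 sample and above the macrophage median. Its log2 difference from the other gates was 2.80 in migratory dendritic cells (SE 0.21, adjusted p = 7.00e-17) and 2.15 in macrophages (SE 0.14, adjusted p = 7.60e-20). It was called lower in cDC2 (−1.92), monocytes (−1.44) and Retnla-positive cells (−1.42).

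Between the 2 high gates, Cxcl16 was 0.54 higher in migratory dendritic cells (adjusted p = 0.0541, not called, with 17.6% of genes called higher there). With HT2 left out, this became 0.76 with an adjusted p of 0.00762. No single macrophage carried the signal: the top cell held a median of 5.86% of a sample's Cxcl16. Thinned to 1000 UMIs, 32.9% of macrophages in the median sample had a UMI, against 0.546% of T cells and 1.16% of B cells.

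Ccl22, a Ccr4 ligand, was the most restricted of the 8 by level. In migratory dendritic cells, which carry antigen to lymph nodes, it was 11.4 UMIs per 10000 in earlier Nulliparous, 22.9 in earlier Lactation, 5.44 in Involution, 8.75 in Regression, 11.2 in GF and 2.61 in later HT2. Every other gate stayed at or under 1.39, so the lowest migratory sample lay above every sum of the other gates. The next gate, cDC1, ran from 0.00 to 1.39 with a median of 0.18. Ccl22 was 7.62 higher in migratory dendritic cells than in the mean of the other gates (SE 0.32, adjusted p = 1.84e-27) and 4.17 higher than in cDC1 (SE 0.40, adjusted p = 8.87e-13, with 18.3% of genes called higher there). It was also called higher in cDC1 (2.61, SE 0.41, adjusted p = 3.52e-07) and lower in macrophages (−2.08), monocytes (−3.65) and Retnla-positive cells (−2.60). In cDC1 a UMI was seen in 23 of 399 cells, and the top cell held a median of 94.9% of a sample's Ccl22. The cDC1 median was 0.73 in the earlier and 0.04 in the later library. The cDC1 call held with each sample's top cell left out. A UMI was seen in 15.2% to 76.3% of migratory cells, with a median of 59.2%, and in 0.00% to 0.727% of T cells. The migratory gate held 53.9% (earlier library) and 55.6% (later library) of all Ccl22 UMIs. Cells in no named class held 20.2% and 22.9%.

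Ccl17, the other Ccr4 ligand, was sparse. In migratory dendritic cells it was 1.64 UMIs per 10000 in earlier Nulliparous, 0.68 in earlier Lactation, 0.41 in Regression, 0.29 in later HT2 and 0 in Involution and GF, with a UMI in at most 21.1% of cells against at most 0.329% of T cells. In cDC1 the earlier samples lay between 0.18 and 0.71 and the later ones between 0.00 and 0.07, so the libraries did not overlap. Ccl17-positive migratory cells mostly had Ccl22 too, 10 of 12 in the earlier and 11 of 12 in the later library, where Ccl22 was seen in 65.2% and 44.0% of all migratory cells. In the earlier library the gates held only 37.3% of Ccl17 UMIs, since 1 ungated cell held 69 UMIs, 40.8% of the total.

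Cxcl2, the neutrophil chemokine, was found in macrophages, Retnla-positive cells and monocytes. The macrophage level ran from 1.03 UMIs per 10000 (earlier Lactation) through 4.18 to 11.5 (Balb/c), with later Gestation at 10.9 and GF at 8.24. Retnla-positive cells ran from 0.93 (earlier Lactation) through 4.10 to 6.17 (Involution), and monocytes from 0.93 (later Lactation) through 2.83 to 5.99 (earlier Lactation). These 3 ranges overlapped. Against the mean of the other gates Cxcl2 was called higher in macrophages (2.27, SE 0.30, adjusted p = 7.02e-09), Retnla-positive cells (1.91, SE 0.31, adjusted p = 7.83e-07) and monocytes (1.44, SE 0.34, adjusted p = 4.31e-04). It was called lower in cDC1 (−1.98) and cDC2 (−1.85). Macrophages and Retnla-positive cells did not differ by the test (0.30, adjusted p = 0.592, with 17.6% of genes called higher in macrophages).

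Neutrophils, gated outside the 6 types by S100a8, had far more Cxcl2, from 34.3 to 93.3 UMIs per 10000 over 9 samples, with a UMI in 187 of 274 cells. The neutrophil list moved in the monocyte gate, from 2.95 to 224 UMIs per 10000. With cells of at least 5 S100a8 UMIs left out, the monocyte difference was 0.60 and no longer called (adjusted p = 0.210), and in the later library alone it was 0.94 (adjusted p = 0.0613). The macrophage and Retnla-positive calls held in both. T cells had a Cxcl2 UMI in 0.540% to 4.52% of cells and B cells in 1.15% to 14.3%. The share was 8.41% to 39.5% in macrophages and 11.8% to 35.2% in Retnla-positive cells. The B cell level reached 2.62 UMIs per 10000, with a median of 0.56. The B cell range thus overlapped both gates by share and by level.

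Ccl2, the main monocyte-drawing chemokine, was highest in Retnla-positive cells. It ran there from 0.64 UMIs per 10000 (earlier HT2) through 1.31 to 2.66 (later Lactation), with a UMI in 10.3% to 37.8% of cells. T cells had one in 0.00% to 2.58% and B cells in 0.00% to 7.87%. The highest B cell level, 0.83 UMIs per 10000, lay above the lowest Retnla-positive level. In macrophages it ran from 0.07 (earlier Gestation) through 0.56 to 2.40 (later HT2). A UMI was seen in 0.988% to 44.4% of macrophages, so the lowest samples were at the T and B cell shares. The 4 earlier macrophage samples, 0.07 to 0.24, all lay below the 7 later ones, 0.30 to 2.40. Ccl2 was called higher in Retnla-positive cells (2.33, SE 0.25, adjusted p = 2.07e-11) and macrophages (1.49, SE 0.26, adjusted p = 2.41e-06), and lower in cDC1 (−1.47) and migratory dendritic cells (−2.06). In the earlier library alone the macrophage difference was 0.33 and not called (adjusted p = 0.786). Retnla-positive cells exceeded macrophages by 0.71 (SE 0.26, adjusted p = 0.0271, with 14.1% of genes called higher there). That call was lost in the later library alone (0.36, adjusted p = 0.429), with 1 UMI for every gate gene (0.44, adjusted p = 0.325) and with each top cell left out (0.68, adjusted p = 0.0617).

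Ccl7, the second Ccr2 ligand, followed the same 2 gates at a lower level. In macrophages it ran from 0.01 UMIs per 10000 (earlier Gestation) through 0.30 to 1.61 (later HT2), and in Retnla-positive cells from 0.00 (earlier Gestation) through 0.35 to 0.89 (later HT2). A UMI was seen in 0.247% to 24.3% of macrophages, 0.00% to 1.09% of T cells and 0.00% to 2.38% of B cells. The lowest macrophage samples were thus at the T and B cell shares, and the B cell level reached 0.38 UMIs per 10000. Ccl7 was called higher in macrophages (3.21, SE 0.30, adjusted p = 1.13e-13) and Retnla-positive cells (2.51, SE 0.32, adjusted p = 3.59e-09) and lower in cDC1 (−2.43) and monocytes (−1.77). With 1 UMI or 2 UMIs for every gate gene Ccl7 did not pass the low-count filter, and with cells of more than 1 gate left out neither Ccl2 nor Ccl7 did, so those settings gave no test of their calls. The 2 high gates did not differ by the test (−0.58, Retnla-positive against macrophages, adjusted p = 0.128). In the later library, Ccl2 was seen in 71 of 115 Ccl7-positive macrophages, 61.7%, against 24.9% of all macrophages. It was seen in 69 of 104 Ccl7-positive Retnla-positive cells, 66.3%, against 29.7% of all such cells. In the earlier library the counts were 3 of 12 and 5 of 13, and Ccl7 did not pass the filter on low counts there. Ccl2 and Ccl7 belong to a family of similar genes, and how reads matching several genes were counted is not given in the sources used here.

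Within the macrophage gate, Cxcl16 was low where Ccl2 and Ccl7 were high. Later HT2, Regression and Involution had the 3 lowest Cxcl16 levels, 1.78, 1.45 and 2.97 UMIs per 10000, and the other 8 samples had 4.29 to 6.49. The same 3 samples had the 3 highest Ccl2 levels, 2.40, 1.64 and 1.44, and the 3 highest Ccl7 levels, 1.61, 1.14 and 0.88. They also had the most Mrc1, the mannose receptor of tissue-resident macrophages, at 24.1, 19.1 and 18.9 against 0.38 to 10.0 in the others. Each is a single sample of the later library, and Involution and Regression have no earlier sample as a replicate check. Earlier HT2 had Cxcl16 at 4.60, Ccl2 at 0.24, Ccl7 at 0.30 and Mrc1 at 5.51. By level, these were the lowest Cxcl16 and the highest Ccl2, Ccl7 and Mrc1 of the earlier library, but did not reach the later HT2 levels. They rest on few cells: of 71 macrophages, 1 had a UMI of Ccl2 alone, 2 of Ccl7 alone and 1 of both. By share of cells, Ccl2 was highest in earlier Nulliparous among the earlier samples, at 4.24%, or 10 of 236 macrophages. The relation of the difference to stage was not tested.

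**Figure D3:**
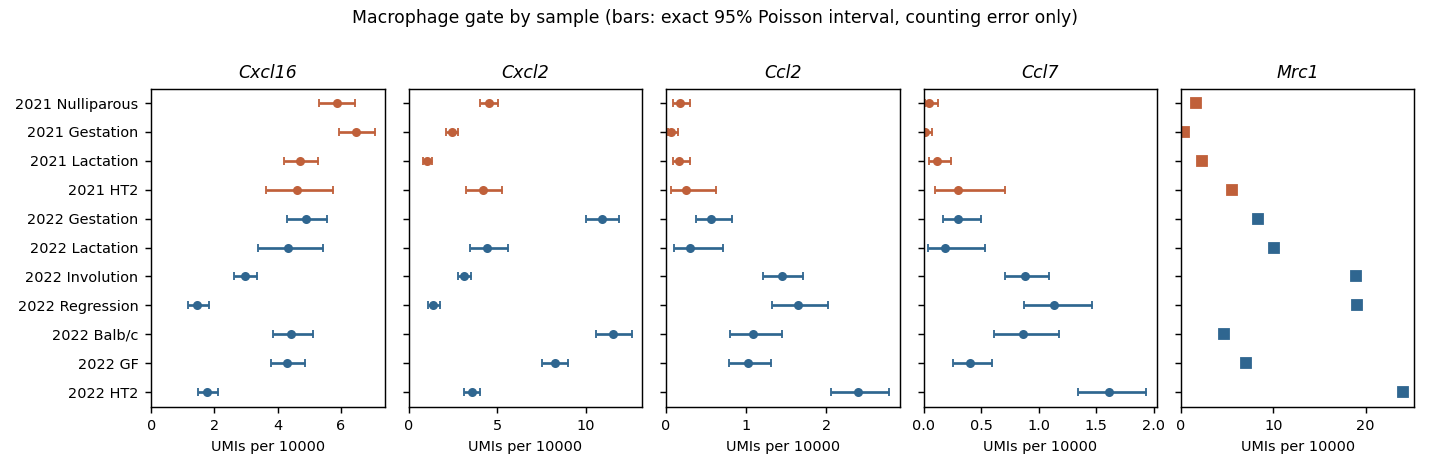
Cxcl16, Cxcl2, Ccl2, Ccl7 and Mrc1 in the macrophage gate (UMIs per 10000) for each of the 11 hash-defined samples, with exact 95% Poisson intervals (counting error only) for the chemokines and no interval for Mrc1. Later Involution, Regression and HT2 have the lowest Cxcl16 and the highest Ccl2, Ccl7 and Mrc1.

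Of the receptors, Cxcr6 and Ccr4 were highest in T cells, Cxcr3 in T cells and cDC1, Cxcr2 in neutrophils and Ccr2 in Retnla-positive cells and cDC2. Cxcr3 had a median of 0.98 UMIs per 10000 in T cells and 0.71 in cDC1, and at most 0.12 in the other classes. Cxcr3 was called higher in cDC1 than in the mean of the other gates (3.24), in the gate where its ligand Cxcl9 was highest. Cxcr6, the Cxcl16 receptor, had a median of 1.97 in T cells and at most 0.12 elsewhere. Ccr4 was at 0.06 in T cells and at a median of 0 in the other classes. Cxcr2 was at 15.9 in neutrophils, where Cxcl2 itself was high, and at 0.45 in monocytes. Ccr2, the receptor of Ccl2 and Ccl7, was at 10.2 in Retnla-positive cells, 9.66 in cDC2, 6.33 in monocytes, 5.65 in cDC1 and 3.17 in macrophages, and was called lower in migratory dendritic cells (−3.21) and macrophages (−0.38). Ccr1, which also binds Ccl7, was called higher in macrophages (2.20), Retnla-positive cells (1.49) and monocytes (0.80).

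**Figure D4:**
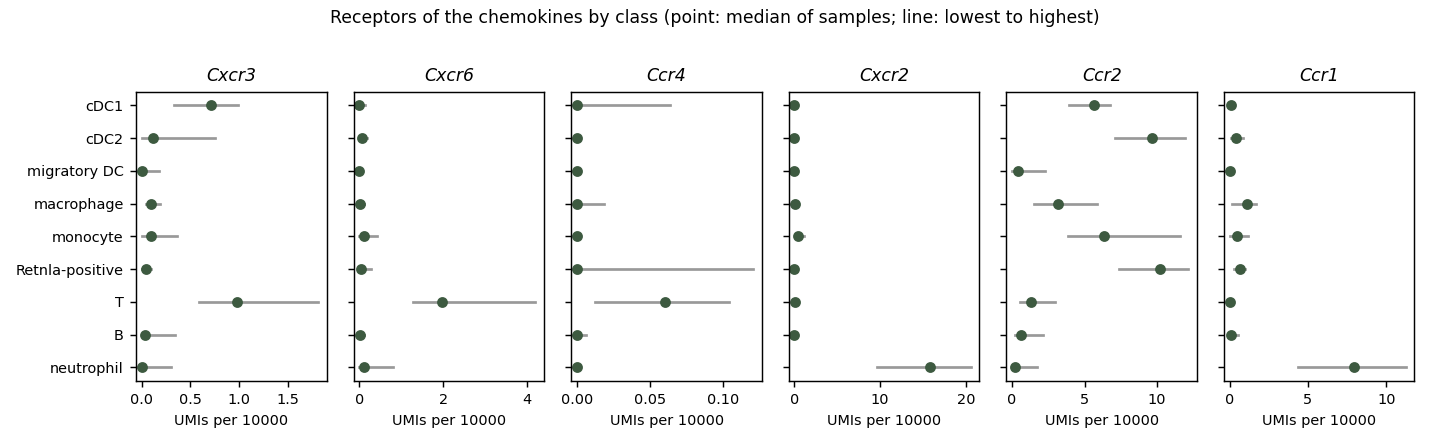
Receptor levels (UMIs per 10000) by cell class; points are medians over hash-defined samples and lines run from the lowest to the highest sample. Cxcr3 and Cxcr6 are highest in T cells, Cxcr2 in neutrophils and Ccr2 in Retnla-positive cells and cDC2.

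Other chemokines sorted by gate as well. Of 20 listed, 11 were tested. Macrophages had 6 called higher (24.3% of all genes) and 1 lower (17.6%), with a median of 1.96 against 0.02 over all genes. Pf4 (4.60), Ccl12 (3.996), Ccl8 (3.73) and Ccl24 (3.13) led. Retnla-positive cells had 6 higher (21.5% of all genes) and 2 lower (18.1%), with a median of 2.11 against −0.001 over all genes. Ccl24 (4.17), Pf4 (3.31) and Ccl6 (3.19) led there, of which Ccl6 was also a listed marker of that gate. Migratory dendritic cells had 2 higher (17.5% of all genes) and 4 lower (19.5%). Ccl5 (4.91) and Cxcl12 (3.98), the latter known from stromal cells, were the higher ones.

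Genes of the NF-kB pathway, which drives several of these chemokines, were called higher in migratory dendritic cells for 10 of 14 (17.5% of all genes). Relb (4.35), Traf1 (3.20) and Nfkb2 (1.95) led, with a list median of 1.46 against −0.08 over all genes. Relb was also a marker of that gate. In macrophages 3 were higher (24.3% of all genes), Il1b (1.29), Nfkbiz (0.58) and Tnf (0.51), and 8 lower (17.6%). The higher count there was near the background. Retnla-positive cells had 0 higher (21.5% of all genes) and 9 lower (18.1%). In cDC1 0 were higher (23.8%) and 9 lower (23.0%), and DESeq2 also called 0 higher in both gates. In cDC2 5 were higher (15.6%) and 0 lower (9.72%), and in monocytes 4 were higher (20.2%) and 2 lower (16.8%). Interferon pathway genes were called higher in monocytes for 9 of 17 tested (20.2% of all genes), among them Irf7 (1.26) and Ifit3 (1.21). In migratory dendritic cells 4 were called higher, Gbp5 (3.32), Gbp2 (2.59), Irf1 (1.82) and Mx1 (1.78), and 3 were lower, with 17.5% and 19.5% of all genes called and a list median of −0.27. In cDC1, the Cxcl9-high gate, 2 were higher (23.8% of all genes) and 3 lower (23.0%), neither above the background. Early-response genes known to be raised by tissue dissociation were called higher in cDC2 for 9 of 12 (15.6% of all genes), in monocytes for 6 (20.2%) and in macrophages for 4 (24.3%), among the last Egr1 (0.92) and Jun (0.85). They were called lower in cDC1 for 7 (23.0% of all genes) and in migratory dendritic cells for 5 (19.5%). In Retnla-positive cells 1 of 12 was called higher (21.5% of all genes) and 0 lower (18.1%), with a list median of −0.07. The part of the early-response genes in the Cxcl2 levels was not tested.

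Over the 60 sums of gate and sample, the genes most like each chemokine were found by Pearson's r of log2(UMIs per 10000 + 0.1) among 8371 genes. These sums share libraries and depth, so r is a description. Ccl22 was closest to Ccr7 (0.91), the lymph node homing receptor, then Cacnb3 (0.90) and Serpinb6b (0.89). Cxcl16 was closest to Zmynd15 (0.89), Basp1 (0.87) and H2-M2 (0.84). Ccl7 was closest to Cd209g (0.88), Cltc (0.88) and Ccl24 (0.86), and Ccl2 to F13a1 (0.83), Pltp (0.81) and Ecm1 (0.80). Cxcl2 was closest to the gate gene Csf1r (0.81), Pla2g7 (0.80) and Pilra (0.79). Cxcl9 was closest to Kit (0.66), Fnbp1 (0.63) and Tspan33 (0.63), Ccl17 to Ccl22 (0.64), Hspb11 (0.58) and Tmem70 (0.57), and Cxcl10 to Zfp414 (0.49), Calhm6 (0.48) and Slc15a3 (0.48).

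Lactation was compared with Gestation in the 4 gates with at least 10 cells in all 4 samples, with library as a block. Each stage had 2 samples, 1 per library, so the fit had 1 residual degree of freedom. The prior that edgeR takes from all genes had 47.8 degrees of freedom in Retnla-positive cells and 29.0 in macrophages. It had 7.59 in cDC1 and 4.99 in monocytes. The edgeR stage p-values thus rest mostly on spread shared over genes. In macrophages 1 chemokine was called of 6 tested, against 0.0917% of all genes, and in Retnla-positive cells 2 of 5, against 1.04%. In cDC1 0 of 2 were called, against 0.0447% of all genes; 1 had an unadjusted p under 0.05, and by DESeq2 0 passed. In monocytes 0 of 3 were called, as were 0% of 2660 genes; 0 of the chemokines and 140 of the genes had an unadjusted p under 0.05, and by DESeq2 0 genes passed. None of the 3 calls held by DESeq2, without the library block or with all samples in the fit.

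Cxcl10 was called higher in Lactation macrophages. Its level was 0.11 UMIs per 10000 in earlier Gestation and 0.85 in earlier Lactation, and 0.56 in later Gestation and 1.46 in later Lactation. By level, both Lactation samples lay above both Gestation samples. The shares of cells with a UMI overlapped, at 6.54% and 13.8% in Lactation against 1.48% and 11.1% in Gestation. The log2 difference was 2.07 (SE 0.41, edgeR adjusted p = 0.0235). Later Lactation had 29 macrophages. With each top cell left out, Cxcl10 was not among the calls, of which there were 0 in any gate, and fewer chemokines passed the filter. The neutrophil list moved with it, from 0.32 to 3.03 UMIs per 10000 in the earlier and from 2.02 to 19.1 in the later library. With cells of at least 5 S100a8 UMIs left out the difference was 2.09, not called (adjusted p = 0.925).

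Cxcl2 was called lower in Lactation Retnla-positive cells. Its level was 4.10 UMIs per 10000 in earlier Gestation and 0.93 in earlier Lactation, and 4.99 in later Gestation and 2.61 in later Lactation, so the stages did not overlap. The log2 difference was −1.46 (SE 0.30, adjusted p = 0.00185). In the earlier library the share of cells with a UMI moved the other way, from 11.8% to 15.1%, and 1 Gestation cell held 26 of 39 UMIs. With each top cell left out the difference was −1.11 (adjusted p = 0.281). In macrophages Cxcl2 was also lower in Lactation in both libraries, 2.43 to 1.03 and 10.9 to 4.44, without a call (−1.26, adjusted p = 0.238). In Retnla-positive cells the dissociation list moved with it, from 47.9 to 32.3 and from 91.3 to 57.5 UMIs per 10000, as did the NF-kB list, from 10.4 to 6.80 and from 14.8 to 10.9. Of 10 NF-kB genes tested, 1 was called lower, Tnfaip3 (−2.21), an NF-kB inhibitor. Of 12 dissociation genes, 2 were called lower, Fosb (−1.34) and Dusp1 (−1.14). Of all genes in this gate, 1.04% were called either way. DESeq2 called 0 genes of either list and 1 of 3367 genes in all. The part of these lists and genes in the Cxcl2 difference was not tested.

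Cxcl9 was called higher in Lactation Retnla-positive cells by 1.86 (SE 0.50, adjusted p = 0.0468). The levels were 0.11 in both earlier samples, 0.64 in later Gestation and 2.56 in later Lactation, where 1 cell held 51 of 52 UMIs. The call therefore rested on 1 cell. Without the top cells Cxcl9 did not pass the filter. Cxcl16 in Retnla-positive cells went from 0.21 in Gestation to 0.74 in Lactation and from 0.20 to 1.04, without a call (2.16, adjusted p = 0.0522). Over all samples of the Retnla-positive gate, the top cell held up to 76.2% of a sample's Cxcl16. In macrophages Cxcl16 went from 6.49 to 4.71 and from 4.90 to 4.31, also without a call (−0.32). The macrophage marker list moved in the Retnla-positive gate from 15.2 to 78.0 and from 42.7 to 77.4 UMIs per 10000. In the same gate the natural killer list went from 5.46 to 0.51 and from 2.53 to 0.54, and later Lactation had a red cell list of 106 UMIs per 10000, against at most 0.44 in the other samples. The part of these lists in the Cxcl2, Cxcl9 and Cxcl16 values was not tested. Of the other chemokines in that gate, Ccl8 (3.09), Ccl4 (2.47) and Ccl3 (2.36) were called higher and Ccl5 (−2.35) lower. Ccl3 went from 0.63 to 0.43 (earlier) and from 0.48 to 4.88 (later). Ccl4 went from 0.95 to 0.64 (earlier) and from 0.48 to 7.001 (later), so the direction of both differed between the libraries. DESeq2 called 0 of the 8 other chemokines tested in this gate. Ccl2 did not pass the test in Retnla-positive cells (0.25) or macrophages (0.09), nor did Ccl7 in macrophages (0.61). In macrophages both differed in sign between the libraries, Ccl2 at 1.02 in the earlier and −0.84 in the later, and Ccl7 at 1.71 and −0.65.

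**Figure D5:**
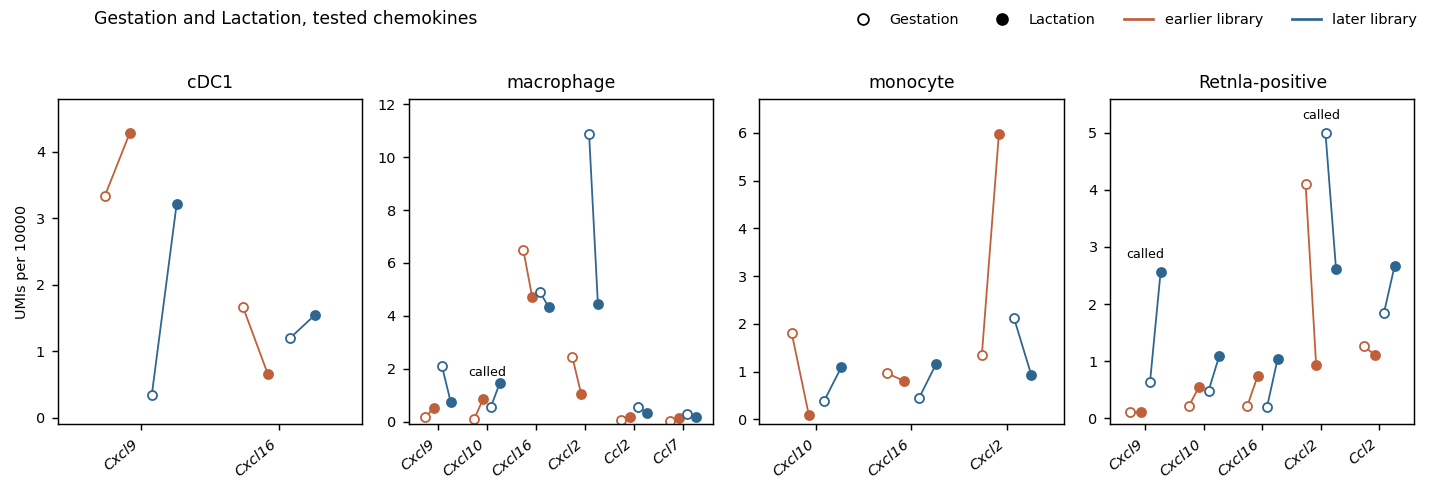
UMIs per 10000 of each tested chemokine in Gestation (open) and Lactation (filled), joined within the earlier and the later library, for the 4 gates tested. Points marked "called" passed an adjusted p of 0.05: Cxcl10 in macrophages and Cxcl9 and Cxcl2 in Retnla-positive cells.

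Other tags have 1 sample each and no test. Balb/c had the highest macrophage Cxcl2, 11.5 UMIs per 10000, and the second highest cDC1 Cxcl9, 8.05, where 2 of 15 cells had a UMI. GF had the highest cDC1 Cxcl9, 8.41, where 6 of 25 cells had a UMI, with macrophage Cxcl16 at 4.29, within the range of the other samples. Earlier Nulliparous had Cxcl16 at 5.86 in macrophages and 6.19 in migratory dendritic cells. Involution had the highest Cxcl2 of Retnla-positive cells, 6.17, and the highest Cxcl10 of monocytes, 1.95. The Balb/c macrophage gate had a neutrophil list of 24.7, the highest of the 11 samples, and the GF macrophage gate a milk protein list of 699 UMIs per 10000. Their part in these levels was not tested.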

How the data were processed

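The deposited matrices give UMI counts and hash tag counts, whole numbers that the authors had not normalized. The mm10 build and Cell Ranger 6.1.0 are named in the submitters' processing notes, and libraries followed the 10x 3' protocol, per the labels' protocols. The later matrix held 21632 barcodes, the earlier one 1347735. Cells with at least 500 UMIs, 300 genes, at most 10% mitochondrial UMIs and 1 tag (Seurat 5.3.0 HTODemux, quantile 0.99) were kept, and Scrublet calls (scanpy 1.11.5, expected rate 0.08) were removed. Cells with 2 or more UMIs over T, B and natural killer genes entered no gate. A cell entered the first gate met, in the order migratory dendritic cell, cDC1, Retnla-positive, macrophage, cDC2, monocyte. Counts were summed per gate and sample, without rounding. edgeR 4.0.16 was used with TMM scaling, its default low-count filter and a sample (gates) or library (stages) block. SE is the absolute log2 change over the square root of F. Gate genes were left out of counts of calls. The code was tested on simulated data. The members, gates and lists were chosen with earlier results of these data known. Named genes are the 8 chemokines, their listed pathway genes and, for each, the 3 genes with the highest r among those with at least 200 UMIs. The alternatives are in the closing section. Leaving out cells with S100a8 UMIs was chosen after seeing the data. Intervals cover counting error only.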

Additional observations from a re-analysis of the deposited data

Results flagged for a closer look

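Cxcl16 moved in opposite directions between Gestation and Lactation in 2 gates: it was 2.16 higher on the log2 scale in Lactation Retnla-positive cells and −0.32 in macrophages, with the same signs in both libraries. The difference between the gates was not tested, and neither value was called. The Retnla-positive gate had 34 cells in earlier Gestation and 37 in later Lactation. Over the 11 samples of that gate, the top cell held up to 76.2% of a sample's Cxcl16.

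Cxcl2 lay above every gate in neutrophils, which are not antigen-presenting cells of the 6 gates. Their median was 64.8 UMIs per 10000 over 9 samples, against medians of 4.18 in macrophages and 4.10 in Retnla-positive cells. In the same neutrophil sums Cxcl9, Ccl17, Ccl2 and Ccl7 had 0 UMIs in 274 cells.

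In 3 cases the cell with the most UMIs of a chemokine in a library was ungated and held at least 10.9% of them. A cell of the earlier library in no named class held 69 UMIs of Ccl17, 40.8% of that library's Ccl17. Another such cell held 6 UMIs of Ccl7, 10.9% of the total. A cell of the later library in the T cell class, under the GF tag, held 262 UMIs of Cxcl9, 14.3% of the total. Smaller shares lay in 1 cell of no named class for Ccl22 and Ccl2. Such a cell held 32 UMIs of Ccl22 (7.34%) in the earlier library. In the later library 1 held 100 UMIs of Ccl22 (9.85%) and 1 held 112 of Ccl2 (5.37%).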

How the results depend on the processing

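The count of 13 chemokine calls higher in a gate ran from 9 to 17, within 1.5 times, over the alternatives run; calls lower in a gate were not followed. DESeq2 and the data without HT2 kept all 13, the later library alone 12 and the earlier library alone 9 of its 12. Ccl17, untested in the reported fit, was called higher in cDC1 and migratory dendritic cells with no low-count filter, with 20 cells per sum, in the earlier library alone and at an HTODemux quantile of 0.95. Cells of several gates left out gave 9, without Ccl2 and Ccl7, which were then not tested, and 1 or 2 UMIs for every gate gene left Ccl7 untested. Cxcl10 was gained in macrophages and monocytes with no filter and in monocytes with 2 UMIs. The 2 calls between the highest and second gate became 1 with 1 UMI for every gate gene and 1 with each top cell left out. Cxcl9 in cDC1 against migratory dendritic cells turned from −0.04 to 0.23 with 1 UMI for every gate gene, 0.29 with 2 UMIs, 1.78 with cells of several gates left out, 0.21 with lymphoid cells kept, 1.05 at quantile 0.95, 0.78 by DESeq2, 0.20 with no filter, 0.43 without top cells, 10.17 in the earlier library alone (a fit against sums at 0), 0.063 without HT2 and 0.85 with 20 cells per sum. Cxcl10 between macrophages and monocytes turned to 0.090 with lymphoid cells kept, 0.091 by DESeq2 and 0.023 in the earlier library alone, and Cxcl2 between macrophages and Retnla-positive cells to −0.58 with cells of several gates left out. Cxcl9 in migratory dendritic cells was −6.50 in the earlier library alone.

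The 3 stage calls were the least stable. Their number was 1 with 1 UMI for every gate gene and 1 with lymphoid cells kept, each shared with the 3. It was 1 with 2 UMIs (Cxcl9 in cDC1) and 1 with all samples in the fit (Cxcl16 in Retnla-positive cells), neither of them among the 3. It was 5 with Scrublet calls kept and 5 with no filter, all 3 included, and 3 without S100a8 cells, 2 of them shared. It was 0 by DESeq2 (3 of 16 at an unadjusted p under 0.05), 0 at quantile 0.95 (3 of 14), 0 without top cells (5 of 10, fewer passing the filter) and 0 with cells of several gates left out (1 of 5, since only 2 gates kept enough cells). With no replicate block, that is without pairing samples by library, 0 were called (3 of 16 at an unadjusted p under 0.05), and Ccl2 in macrophages turned to −0.37. Over the other settings, stage values changed sign for Cxcl9 in Retnla-positive cells (−0.11 with 1 UMI, and, with 1 library left out, from −0.0088 without the later to 1.85 without the earlier one), Cxcl9 in macrophages (1.99 with 1 UMI, 0.24 with Scrublet calls kept, 0.046 by DESeq2, 1.99 without top cells, 0.0035 without S100a8 cells), Cxcl16 in cDC1 (0.24 with 2 UMIs), Cxcl10 in monocytes (0.070 with 2 UMIs) and Cxcl16 in monocytes (−0.90 at quantile 0.95). With 1 library at a time, values in the earlier and the later library differed in sign for 9 of the 16 stage results: beside Cxcl9 in Retnla-positive cells, Ccl2 there, Ccl2, Ccl7 and Cxcl9 in macrophages, Cxcl16 in cDC1 and Cxcl10, Cxcl16 and Cxcl2 in monocytes. Apart from the reasons given, the cause was not tested.

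Thinned to 1000 UMIs per cell, the median share of migratory dendritic cells with a UMI fell from 77.0% to 42.5% for Cxcl16, from 59.2% to 35.0% for Ccl22 and from 13.6% to 0% for Ccl17. It fell to 14.1% for Cxcl2 in macrophages and to 7.69% for Ccl2 and 2.31% for Ccl7 in Retnla-positive cells. Depth thus limits statements on Ccl7, Ccl17 and Cxcl10, and the sources used here do not say how many mice a sample holds.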

Other observations

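Sums under 10 cells were left out of every test. Among them, the migratory gate had Ccl22 at 2.52 UMIs per 10000 in earlier Gestation, 16.0 in earlier HT2, 6.52 in later Gestation, 17.7 in later Lactation and 23.5 in Balb/c. All 5 lay above the highest cDC1 sum, 1.39, but the earlier Gestation value rested on 1 positive cell of 7. Ccl17 was at 6.73 in the 9 migratory cells of Balb/c, where 1 cell held all of it. It was at 4.44 in the 9 cDC2 of later Lactation.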
